A study of Mus musculus with 2 samples.

Results

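The chemokine receptor genes described here are Ccr2, Cx3cr1, Ccr1 and Cxcr4, 4 of the 54838 genes in the gene list of the count matrices. They were chosen by name, with earlier results of these data known. Their transcripts were counted in single macrophages of the adult mouse sciatic nerve (SN), in 1045 YFP− cells and 4053 YFP+ cells. A cell was a barcode with at least 500 unique molecular identifiers (UMIs, each marking 1 captured transcript) and at least 200 genes.

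Both libraries came from Flt3-Cre LSL-YFP fl/fl mice, in which Cre from the Flt3 promoter removes a stop sequence before YFP. Flt3 is switched on in progenitors below the haematopoietic stem cell, so descendants of these progenitors carry YFP, and YFP− macrophages are mainly of embryonic origin but can include stem cell-derived cells in which the stop sequence was not removed. SNs of 19 male mice, 10 to 12 weeks old and with no treatment stated, were pooled, and cells with CD64 and an intermediate level of CD45 on their surface were sorted by YFP. Each group is 1 library of pooled cells, so no variation between mice could be measured and no test between the groups was possible. All intervals below are 95% intervals for counting error only.

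Chemokine receptors are membrane proteins that couple to inhibitory G proteins and steer leukocytes along gradients of small secreted proteins, the chemokines. CCR2 binds CCL2, CCL7 and CCL12, brings monocytes out of the bone marrow and marks macrophages recently derived from them in many tissues. CX3CR1 binds CX3CL1, a chemokine held on the membrane of neurons and other cells, and is a classic marker of microglia and of several macrophages lying close to nerves. CCR1 binds inflammatory chemokines such as CCL3, CCL5, CCL6 and CCL9, and CXCR4 binds CXCL12, which holds leukocytes in the bone marrow and in tissue niches.

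In the GRCm38 genome build, 3 of the 4 genes lie on chromosome 9. Ccr2 (ENSMUSG00000049103, plus strand) spans bases 124101950 to 124113557, and Ccr1 (ENSMUSG00000025804, minus strand) spans bases 123962124 to 123968692. The receptor genes Ccr1l1 and Ccr3 lie between them. Cx3cr1 (ENSMUSG00000052336, minus strand) is annotated from base 119901616 to base 120069879, 3892240 bases away from Ccr1. The far end of that span comes from 1 of its 3 transcripts, which runs across Gorasp1, Csrnp1 and Xirp1 on the same strand, and reads in shared exons of such genes cannot be assigned with certainty. Cxcr4 (ENSMUSG00000045382) lies on the minus strand of chromosome 1 from base 128588199 to base 128592293. No annotated gene overlapped Ccr2, Ccr1 or Cxcr4.

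All 4 genes were found in the RefSeq promoter table of GRCm38.p6, which holds the 250 bases before and the 50 bases after 1 annotated start per gene. The promoters of Ccr2 and Cx3cr1, the pair whose shared detection is described below, and of Cxcr4, whose window has the highest GC content of the 4, are shown 5′ to 3′ on the coding strand. Capitals mark exact matches on either strand to 4 short motifs, namely GAGGAA (a core of sites for the myeloid factor PU.1), TATAAA (the TATA box), GGGCGG (the GC box) and CCAAT (the CCAAT box). Ccr2 is at chr9:124101933-124102232, Cx3cr1 at chr9:120068247-120068546 and Cxcr4 at chr1:128592250-128592549.
Ccr2: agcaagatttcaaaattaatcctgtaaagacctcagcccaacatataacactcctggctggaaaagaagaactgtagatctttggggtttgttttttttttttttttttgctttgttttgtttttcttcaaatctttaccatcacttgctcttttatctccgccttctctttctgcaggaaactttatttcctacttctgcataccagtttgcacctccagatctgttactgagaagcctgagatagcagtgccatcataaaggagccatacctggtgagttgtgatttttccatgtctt
Cx3cr1: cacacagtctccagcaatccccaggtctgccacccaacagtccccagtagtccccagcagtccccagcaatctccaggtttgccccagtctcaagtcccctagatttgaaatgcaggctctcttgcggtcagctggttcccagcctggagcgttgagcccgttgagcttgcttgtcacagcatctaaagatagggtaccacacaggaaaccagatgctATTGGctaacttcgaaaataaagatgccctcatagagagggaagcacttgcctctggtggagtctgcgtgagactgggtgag
Cxcr4: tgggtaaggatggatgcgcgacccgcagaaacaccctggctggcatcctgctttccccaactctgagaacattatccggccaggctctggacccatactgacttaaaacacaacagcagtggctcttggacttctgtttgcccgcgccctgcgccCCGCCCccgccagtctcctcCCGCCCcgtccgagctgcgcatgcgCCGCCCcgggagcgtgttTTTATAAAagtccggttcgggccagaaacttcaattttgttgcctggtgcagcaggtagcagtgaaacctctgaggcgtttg

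The Ccr2 window held none of the 4 motifs and 1 CpG dinucleotide, with a GC content of 38.0%. The Cx3cr1 window held 1 CCAAT box on the reverse strand, 5 CpG dinucleotides and 54.3% GC. The Ccr1 window (chr9:123968643-123968942) held 1 PU.1 core and had 44.0% GC and 1 CpG. The Cxcr4 window held 3 GC boxes on the reverse strand and 2 overlapping TATA boxes, 1 in each orientation, with 20 CpG dinucleotides and 59.3% GC. Over 32817 mouse promoter windows of the same kind, the medians were 52.7% GC and 7 CpG. The PU.1 core was found in 28.3% of these windows, the TATA box in 13.6%, the GC box in 35.6% and the CCAAT box in 37.4%. These are matches of letters, not measured binding.

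Cells of the YFP− library held 2418044 UMIs (median 2233 in a cell), and cells of the YFP+ library 6747554 (median 1484). Levels are given as CPM, the UMIs of a gene per 1000000 UMIs of the summed cells, for which 3 UMIs correspond to 1.24 and 0.445 CPM. The 8 macrophage markers examined summed to 18862 and 18873 CPM, with C1qa at 6161 and 6101 CPM and Csf1r at 992 and 873 CPM, so both libraries carried the markers of their label. Markers of mural cells summed to 9.93 and 114 CPM and those of fibroblasts to 23.6 and 94.6 CPM, both higher in the YFP+ library. T and NK cell markers were nearly absent (0.414 and 0.889 CPM). The 7 monocyte markers summed to 46.3 and 124 CPM, higher in the YFP+ library and nearly all from S100a4 (45.5 and 124 CPM). Of the others, the defining Ly6c2, Plac8, Chil3, Vcan and F10 each had at most 1 UMI in either library. The libraries shared 7 cell barcodes, and 5.74 would be shared by random draws from the barcode list.

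Ccr2 separated the libraries most among the 4 receptors. It had 300 UMIs in YFP− cells, or 124 CPM (110 to 139), and 1967 UMIs in YFP+ cells, or 292 CPM (279 to 305). The YFP+ level was thus 2.34-fold higher, a log2 ratio of 1.23 (1.05 to 1.40, computed with 1 CPM added to both levels). Of 5531 genes with a mean of at least 20 CPM, 85 (1.54%) were higher and 319 (5.77%) lower in YFP+ cells by 1.5-fold or more, and Ccr2 was the only one of the 4 receptors past that fold in either direction. Its ratio stood at percentile 99.8 of these genes, whose median log2 ratio was -0.00243.

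Cx3cr1 was at 273 CPM (253 to 295) in YFP− cells, from 660 UMIs, and at 337 CPM (324 to 351) in YFP+ cells, from 2276 UMIs. The intervals did not overlap, but the log2 ratio of 0.30 (0.18 to 0.43) was small and stood at percentile 90.7 of the genes tested. Cx3cr1 transcripts were thus plentiful in macrophages of both labels.

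Cxcr4 and Ccr1 were scarce. Cxcr4 had 74 UMIs (30.6 CPM, 24.0 to 38.4) in YFP− cells and 286 UMIs (42.4 CPM, 37.6 to 47.6) in YFP+ cells, a log2 ratio of 0.46 (0.09 to 0.83). Ccr1 likewise had 74 UMIs (30.6 CPM) in YFP− cells, and 141 UMIs (20.9 CPM, 17.6 to 24.6) in YFP+ cells, a log2 ratio of -0.53 (-0.93 to -0.12). The intervals of the libraries overlapped slightly for both genes. With each cell weighted equally the log2 ratios were 0.31 for Cxcr4 and -0.38 for Ccr1. In a single random draw of 500 UMIs from each cell, which leaves few UMIs of these genes, they were 0.11 and -0.21.

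**Figure D1:**
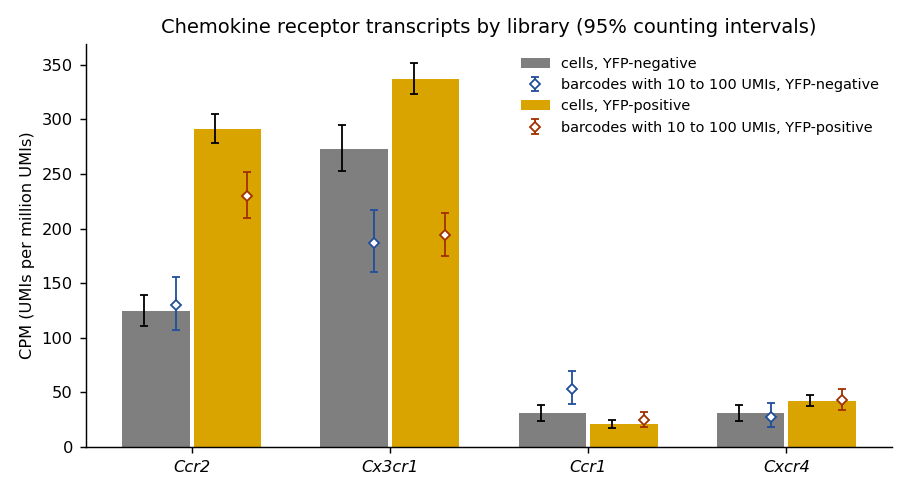
Levels of the 4 receptors in CPM (vertical axis) in cells of the YFP− (grey bars) and YFP+ (yellow bars) libraries, with 95% Poisson intervals. Diamonds are RNA in barcodes with 10 to 100 UMIs of the same library. The Ccr2 bars stand at 124 and 292 CPM, the widest gap of the 4 genes.

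RNA outside cells was read from barcodes with 10 to 100 UMIs. Ccr2 was at 130 CPM there in the YFP− library and at 230 CPM in the YFP+ library, so it was higher in the YFP+ library outside cells as well, by less than in cells. The cells were at -0.06 on the log2 scale relative to this RNA (-0.37 to 0.25) in the YFP− library and at 0.34 (0.20 to 0.49) in the YFP+ library. Cx3cr1 was above the background RNA in both, by 0.54 (0.30 to 0.79) and 0.80 (0.64 to 0.95). Cxcr4 was level with it (27.5 and 42.8 CPM outside cells), and Ccr1 was below it in the YFP− library (52.8 CPM outside cells, log2 -0.77, -1.30 to -0.22). Some markers of the sorted cells stood near this RNA too. Csf1r was at -0.03 and 0.19 and C1qa at -0.15 and -0.03 (YFP− and YFP+), while Mertk was above it, at 0.49 and 0.65. A level near this RNA therefore does not show that a gene is not expressed. Subtracting 10% background RNA from each library left the log2 ratio of Ccr2 at 1.27.

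Because YFP− cells were sequenced more deeply, shares of cells with a UMI were compared after thinning each cell to 500 UMIs. Ccr2 was then found in 33 of 1045 YFP− cells (3.16%, 2.18 to 4.41) and in 489 of 4053 YFP+ cells (12.1%, 11.1 to 13.1). Averaged over all possible draws of 500 UMIs, the shares were 4.16% and 11.6%. Background RNA would give a Ccr2 UMI in 6.28% and 10.8% of cells if it made up all 500 UMIs of a cell. In a cluster of mural and Schwann-like transcripts, 0 of 13 YFP− cells (0%, 0 to 24.7) and 5 of 90 YFP+ cells (5.56%, 1.83 to 12.5) had a Ccr2 UMI. These cells passed the same sort. Cells of other types, doublets and macrophages carrying such RNA could not be told apart, so this share is no measure of background. Median depths of these cells were 959 and 983 UMIs before thinning. Without thinning, 9.86% of YFP− and 25.1% of YFP+ cells had a Ccr2 UMI. The YFP− share lay below that background level, so the share alone shows neither expression nor its absence. In YFP− cells of cluster 6, described below, Ccr2 was at 529 CPM (428 to 646), against 130 CPM outside cells.

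Ccr2 was concentrated in few YFP− cells. Had its 300 UMIs been spread over cells in proportion to their depth, 24.2% of YFP− cells would have held one, against the 9.86% observed. The 48 YFP− cells with 3 or more Ccr2 UMIs held 74.7% of all Ccr2 UMIs, and the richest cell had 12. Cells that carried the transcript held 2.91 UMIs each on average. In the YFP+ library, 231 cells with 3 or more UMIs held 46.0%, the average was 1.93 and the highest count 9, while an even spread would have given 36.4% of cells a UMI instead of 25.1%. Without thinning, 4.59% of YFP− and 5.70% of YFP+ cells had 3 or more Ccr2 UMIs, and 3.25% and 12.7% had 1 UMI. YFP− cells were deeper, which raises their share with 3 or more UMIs. No likeness of the libraries can therefore be read from these shares.

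Cx3cr1 was spread more evenly. After thinning it was found in 11.4% of YFP− cells (9.52 to 13.5) and 14.7% of YFP+ cells (13.6 to 15.8), above the 8.92% and 9.23% that background RNA would give. Without thinning, the shares were 34.3% and 33.6%, where an even spread would have given 44.3% and 40.5%. Cells with 3 or more Cx3cr1 UMIs held 45.0% of its UMIs in YFP− and 34.9% in YFP+ cells.

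For Ccr1 and Cxcr4 most positive cells had a single UMI. Thinned shares were 1.15% and 0.913% for Ccr1, against 2.60% and 1.22% from background RNA, and 1.91% and 2.12% for Cxcr4, against 1.36% and 2.12%. No expression by individual cells, and no difference between the libraries, can be read from such shares. In the YFP− library, 2 cells had 3 Ccr1 UMIs each and no cell had more than 2 Cxcr4 UMIs.

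**Figure D2:**
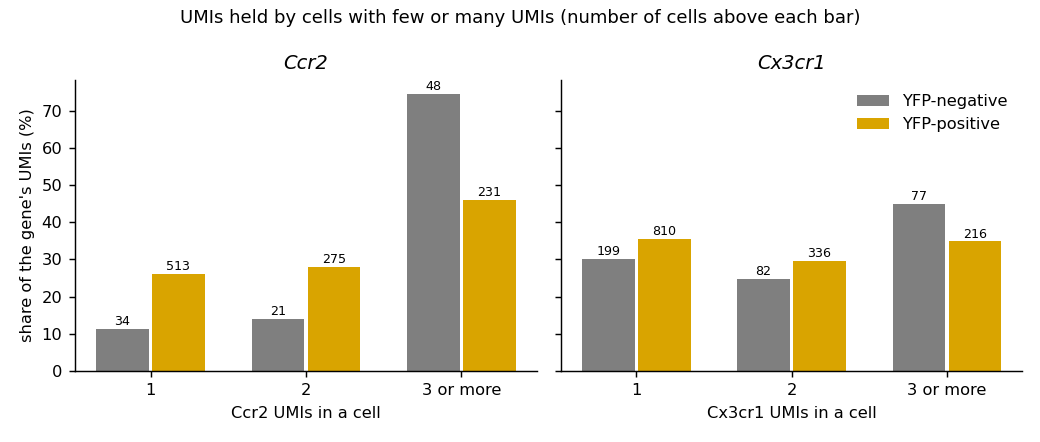
Share of all UMIs of Ccr2 (left) and Cx3cr1 (right) held by cells with 1, 2 or 3 or more UMIs of the gene (horizontal axis), in the YFP− (grey) and YFP+ (yellow) libraries, without thinning. Numbers above bars are cells. For Ccr2 in YFP− macrophages, 48 cells in the right-most class hold 74.7% of the UMIs.

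In YFP+ cells, Ccr2 and Cx3cr1 were detected together more often than their separate shares would give, by a small margin. Without thinning, 448 cells had both, 571 had Ccr2 only and 914 had Cx3cr1 only. Independence would have given 342 cells with both, and 389 when computed within 10 groups of cells of like depth. Cx3cr1 was found in 44.0% of YFP+ cells with Ccr2 (40.9 to 47.1) and in 30.1% of those without. In 3 equal groups of cells by UMI total, from shallow to deep, the shares with Cx3cr1 were 23.7% against 19.5%, 41.6% against 30.7% and 54.6% against 43.3%. Thinned to 500 UMIs, 83 YFP+ cells had both, against 71.8 by independence, and the share with Cx3cr1 among cells with Ccr2 was 1.18 times that among cells without (0.957 to 1.43), or 1.32 times averaged over all draws.

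In YFP− cells, 48 had both transcripts, 55 had Ccr2 only and 310 had Cx3cr1 only, with 35.3 expected by independence and 41.6 within the groups of like depth. Thinned to 500 UMIs, 3 YFP− cells had both against 3.76 by independence, too few for a direction: the share with Cx3cr1 among cells with Ccr2 was 0.79 times that among the others in this draw (0.167 to 2.12) and 1.33 times averaged over all draws.

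The other 5 pairs of receptors had fewer shared cells. Ccr2 and Ccr1 were found together in 2 YFP− cells, where depth would give 7.62, and in 31 YFP+ cells, where it would give 39.6. Ccr1 and Cxcr4 were together in 1 and 5 cells (4.58 and 9.81 by depth). Ccr2 and Cxcr4 were together in 11 and 83 cells (7.82 and 74.0 by depth), and the pairs of Cx3cr1 with Ccr1 (24 and 60, against 25.2 and 52.0) and with Cxcr4 (25 and 100, against 26.3 and 98.6) were near the counts that depth gave.

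**Figure D3:**
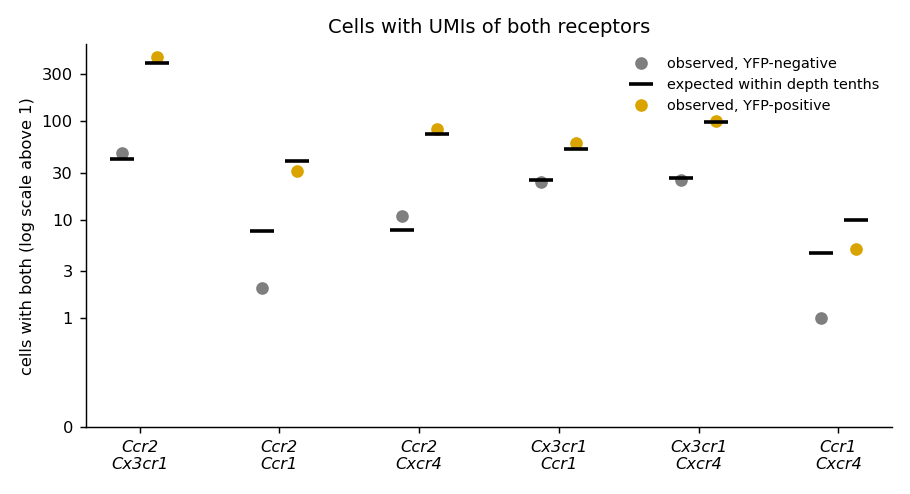
Number of cells with UMIs of both receptors (vertical axis, log scale above 1) for the 6 pairs, without thinning, in the YFP− (grey points) and YFP+ (yellow points) libraries. Black bars are the counts expected if the 2 receptors were independent within 10 groups of cells of like depth. The pair of Ccr2 and Cx3cr1 has 48 and 448 cells, above its bars, and Ccr2 with Ccr1 has 2 and 31, under its bars.

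Cells with more Ccr2 also had a higher level of Cx3cr1 in the YFP+ library. Cx3cr1 was at 306 CPM in YFP+ cells without Ccr2, at 373 CPM in those with 1 Ccr2 UMI, at 387 CPM with 2 and at 487 CPM (431 to 548) with 3 or more. The median depth of these groups moved with Ccr2 as well, from 1359 UMIs per cell without it to 2204 UMIs with 3 or more, and its part in the levels was not tested. In YFP− cells the levels were 269, 262, 290 and 332 CPM (247 to 436 in the last group), with overlapping intervals. Among YFP+ cells with and without Ccr2 in the same cluster of cells (clusters are described below), Cx3cr1 was higher with Ccr2 in 9 of 9 clusters that had at least 20 cells with Ccr2, and 4 of the 9 intervals lay above 0. The log2 ratios ranged from 0.12 to 0.69. Over all YFP+ cells the log2 ratio was 0.41 (0.29 to 0.54). In the YFP− library it was 0.18 (-0.16 to 0.49) over all cells. The 2 YFP− clusters with at least 20 cells with Ccr2 had log2 ratios of 1.18 (0.14 to 2.10) and 1.40 (0.42 to 2.43). Without that minimum, Cx3cr1 was higher in 5 and lower in 5 of 10 YFP− clusters that held a cell with Ccr2. The same count in YFP+ cells was 10 higher and 1 lower of 11 clusters.

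**Figure D4:**
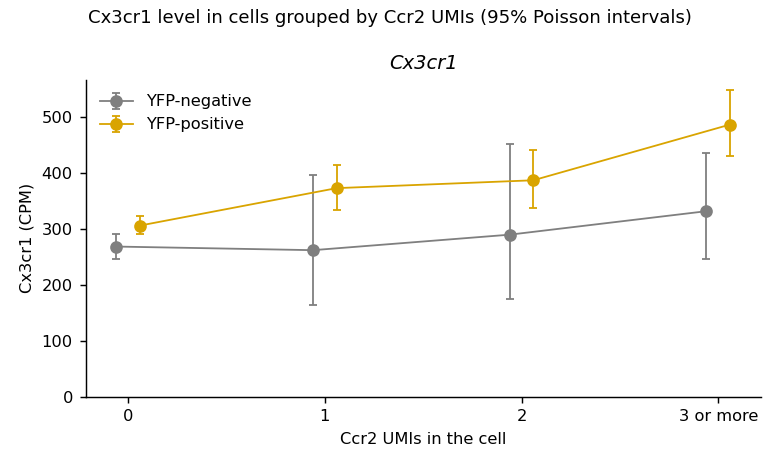
Level of Cx3cr1 in CPM (vertical axis) in cells grouped by their number of Ccr2 UMIs (horizontal axis), in the YFP− (grey) and YFP+ (yellow) libraries, with 95% Poisson intervals. Cx3cr1 is at 306 CPM without Ccr2 and at 487 CPM in the right-most group of YFP+ cells, while the intervals of YFP− cells overlap.

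Cells were next grouped by their transcripts, with all chemokine receptors left out of the grouping, into 11 clusters of both libraries together. Ccr2 was highest in cluster 6, led by Tppp3, Lgals3, S100a4 and S100a6, where it reached 604 CPM (560 to 650). It was followed by cluster 11 (Top2a and Birc5, genes of dividing cells) at 362 CPM, cluster 5 (Cxcl13) at 338 CPM and cluster 8 (Irf7 and Ifit3, genes induced by interferon) at 302 CPM, whose intervals overlapped their neighbours'. It was lowest in cluster 2 (Gpx3) at 88.2 CPM (75.1 to 103) and in cluster 9 (Cd209g, Cd209f and Fcna) at 38.0 CPM (19.0 to 68.0).

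In cluster 6, Ccr2 was at 529 CPM in 67 YFP− cells and at 617 CPM in 494 YFP+ cells, a log2 ratio of 0.22 (-0.09 to 0.55). In the other clusters YFP− cells had less: 40.0 against 122 CPM in cluster 2, 123 against 280 CPM in cluster 3 (Il1b and Cxcl2) and 122 against 261 CPM in cluster 1 (mt-Co2). The level was higher in YFP+ cells in 11 of 11 clusters, with 6 intervals above 0. YFP− cells had 0 Ccr2 UMIs in cluster 10 (13 cells), 1 in cluster 9 and 5 in cluster 5, too few for a direction there. Without cluster 6 the log2 ratio over all cells was 1.35, and with the same weight of each cluster in both libraries it was 0.85, both computed after the data had been seen.

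Cx3cr1 varied less between clusters. It was highest in cluster 5 at 468 CPM (416 to 524), cluster 7 (Ccl12 and Ccl7) at 392 CPM and cluster 6 at 351 CPM, and 6 further clusters lay between 281 and 322 CPM with overlapping intervals. It was lower in cluster 9, at 121 CPM (84.2 to 168), and in cluster 10, the mural and Schwann-like one, at 87.4 CPM. In cluster 5 it was at 473 CPM in 21 YFP− cells (16 UMIs, 270 to 767 CPM) and at 468 CPM in YFP+ cells. The log2 ratio there was -0.02 (-0.74 to 0.81), too wide to call the levels equal. Cx3cr1 was lower in YFP− than in YFP+ cells of cluster 6 (215 and 376 CPM, log2 0.80, 0.33 to 1.32) and of cluster 1 (174 and 342 CPM, log2 0.97, 0.57 to 1.39), and intervals in the other 9 clusters held 0.

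Cluster 9, lowest in Ccr2, ranked first for Ccr1 and Cxcr4. Its Ccr1 level was 55.3 CPM (31.6 to 89.7), with 10 UMIs in YFP− cells (90.9 CPM) and 6 in YFP+ cells (33.4 CPM). Its Cxcr4 level was 76.0 CPM (47.6 to 115), with 1 UMI in YFP− cells (9.09 CPM) and 21 UMIs in YFP+ cells (117 CPM), a log2 ratio of 3.55 (1.03 to 6.65). Of the log2 intervals for Cxcr4 in 11 clusters, this was the 1 that lay above 0, and 0 lay below. Intervals of neighbouring clusters overlapped throughout for both genes. Cxcr4 was lowest in cluster 7, with 3 and 4 UMIs, and Ccr1 had no UMI in cluster 10.

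**Figure D5:**
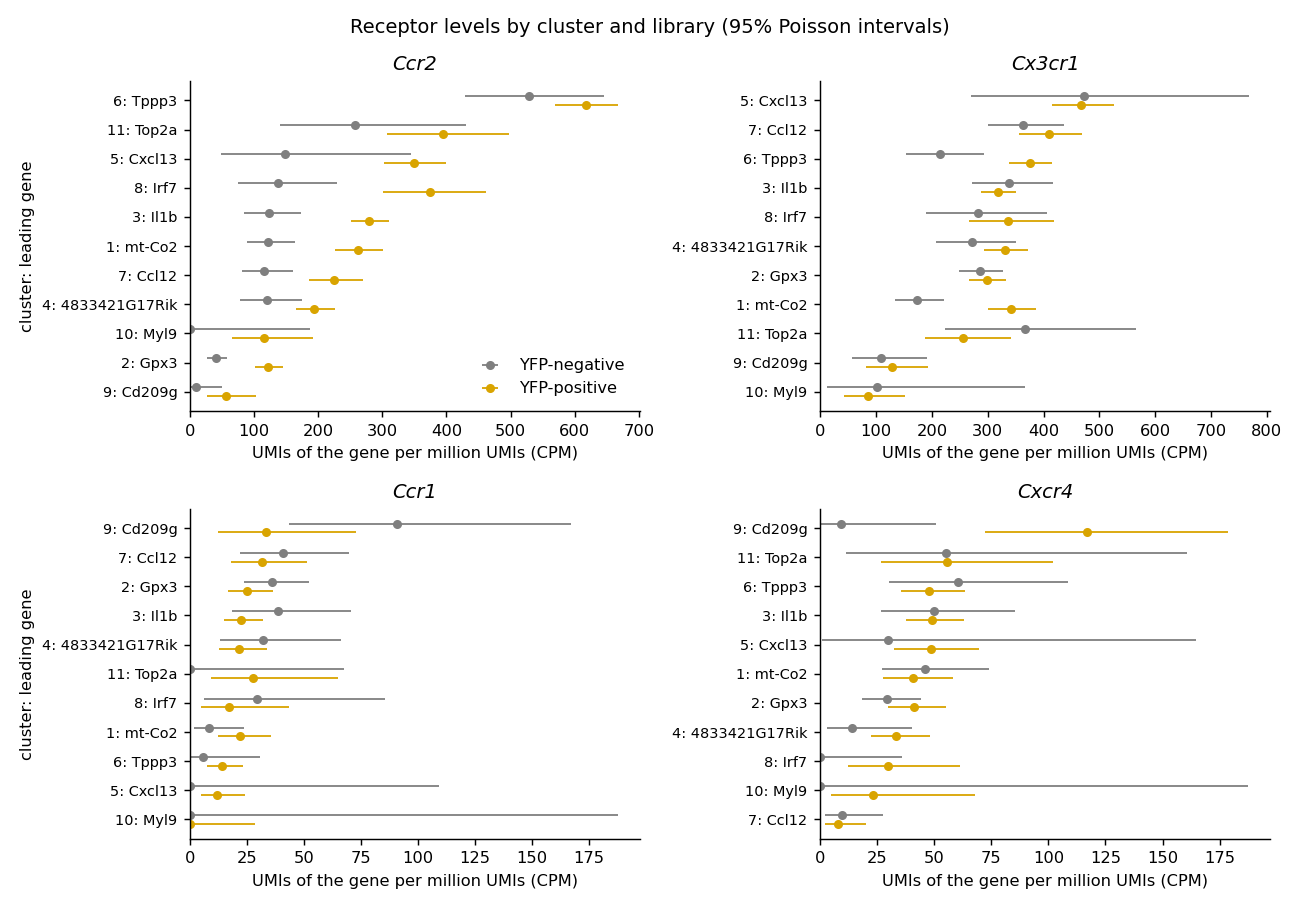
Levels of the 4 receptors in CPM (horizontal axes, each from 0) in 11 clusters named by number and first leading gene, ordered by the level over both libraries, in YFP− (grey) and YFP+ (yellow) cells, with 95% Poisson intervals. Ccr2 stands apart in cluster 6 (529 and 617 CPM). The Cxcr4 points of cluster 9 (9.09 and 117 CPM) rest on 1 and 21 UMIs.

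The cells that carried Ccr2, Cx3cr1, both or neither in the draw of 500 UMIs were compared by their marker genes, with levels from all their UMIs. Cells with Ccr2 only numbered 30 in the YFP− and 406 in the YFP+ library. Cells with neither numbered 896 and 3052, but 632 and 2120 without thinning. Many of them thus held a receptor UMI outside the draw. MHC class II genes, which present antigen, summed to 54445 CPM in YFP− cells with Ccr2 only and to 40840 CPM in those with neither receptor. YFP− cells with Cx3cr1 only had a lower sum than both, 35429 CPM (34735.6 to 36133.5). In YFP+ cells the sums were 65528 CPM with Ccr2 only, 57521 CPM with both, 51542 CPM with Cx3cr1 only and 51658 CPM with neither. Markers of resident perivascular macrophages were lower with Ccr2 only than with neither, at 5847 against 8743 CPM in YFP− and 5657 against 7781 CPM in YFP+ cells. Lyve1, a hyaluronan receptor on such macrophages, was at 76.9 against 333 CPM and at 104 against 258 CPM. Over all cells, Pf4 gave 4677 of the 8556.5 CPM of these resident markers in YFP− and 3975 of 7452 CPM in YFP+ cells. Lower sums were not particular to cells with Ccr2. With Cx3cr1 only, the resident markers summed to 8024 CPM (7696 to 8363) in YFP− and 7299 CPM (7119 to 7482) in YFP+ cells.

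Macrophage markers summed to between 18077 and 18992 CPM in the classes of YFP− cells, leaving out the 3 cells with both, and to between 18691 and 20057 CPM in YFP+ cells, and most of each sum came from C1qa, C1qb and C1qc. Csf1r, the receptor for CSF1, was lower with Ccr2 only than with neither, at 615 CPM (454 to 816) against 1003 CPM (961 to 1048) in YFP− cells and at 705 CPM (645 to 770) against 889 CPM (864 to 916) in YFP+ cells. Monocyte markers summed to 154 CPM with Ccr2 only and 43.8 CPM with neither in YFP− cells, and to 240 and 115 CPM in YFP+ cells. Nearly all of that was S100a4, a calcium-binding protein, and no UMI of Ly6c2, Plac8, Chil3, Vcan or F10 was found in cells with Ccr2 only. Genes that respond to tissue dissociation differed too, at 4347 CPM with Ccr2 only against 8888 CPM with neither in YFP− cells and at 8536 against 9713 CPM in YFP+ cells, and their part in these differences was not tested. Schwann cell markers were at 179.5 against 775 CPM and at 335 against 737 CPM. Low sums of these markers were not particular to cells with Ccr2. Among YFP− cells, the class with Cx3cr1 only had a sum of 275 CPM (217 to 344). The same class of the YFP+ library had 350 CPM (311 to 392), and its cells with both receptors had 301 CPM (216 to 408).

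The 5 genes most enriched in YFP+ cells with Ccr2 were Retnla, S100a6, S100a4, Capg and Anxa2, ranked among 2601 genes with at least 50 CPM. Their log2 ratios over cells without Ccr2 ranged from 1.16 to 0.95. In 33 YFP− cells with Ccr2 the same genes were also higher, with S100a4 at 157 against 41.5 CPM (1.89, 0.94 to 2.72) and Anxa2 at 0.59 (-1.25 to 1.98). For Cx3cr1 the genes were Tgfbr1, a receptor chain for TGF-beta, Skil, a regulator of TGF-beta signalling, Vgll4, Cd300c2 and Ramp1. Tgfbr1 was at 155 against 81.7 CPM in YFP+ cells (0.92, 0.65 to 1.18) and at 91.2 against 55.8 CPM in YFP− cells (0.70, 0.04 to 1.31), while Vgll4 was at -0.37 in YFP− cells (-1.43 to 0.55). For each receptor the genes were picked by their ratio in the YFP+ cells, so their YFP+ intervals test nothing. Only the YFP− values stand apart from that choice.

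For Cxcr4 the leading genes in 86 YFP+ cells were Cxcl2, Cybc1, Atf3, Add1 and Ccl4. These cells were 2.12% of the library, the share that background RNA would give, so they cannot be taken to express Cxcr4. Cxcl2, a neutrophil chemokine, was at 1210 against 387 CPM in YFP+ cells (1.64, 1.39 to 1.88) but at 59.6 against 300 CPM in the 20 YFP− cells with Cxcr4. In YFP− cells Ccl4 was also lower with Cxcr4, at 29.8 against 168 CPM, and Cybc1 and Add1 had log2 ratios of -0.20 and -0.03. Of these genes, only Atf3, a stress-induced factor, was higher with Cxcr4 in both libraries. It was at 371 against 157 CPM and at 238 against 123 CPM, the latter with an interval that held 0 (-0.27 to 1.94). For Ccr1, found in 37 YFP+ and 12 YFP− cells, the genes were Vmp1, Hist2h2aa1, Puf60, Ctcf and 2810025M15Rik, and every interval in YFP− cells held 0.

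Of 20 other chemokine receptor genes examined, 7 had no UMI in cells and 14, these 7 included, had at most 3 UMIs in each library. Cmklr1, which encodes the chemerin receptor, was at 77.3 and 76.5 CPM, and none of the listed receptors that could be tested was past 1.5-fold. Among 11 ligands of the 4 receptors, 8 were tested and 1 was past 1.5-fold, namely Ccl4, at 166 and 266 CPM (log2 0.68, 0.52 to 0.84). Over all genes tested, 1.54% were higher and 5.77% lower in YFP+ cells by this fold, so counts from such short lists say little. The CCR2 ligands Ccl2 (136 and 191 CPM), Ccl7 (87.3 and 98.0 CPM) and Ccl12 (527 and 470 CPM) had log2 ratios of 0.49, 0.17 and -0.17. The CCR1 ligands Ccl3, Ccl6 and Ccl9 were at 313, 1189 and 632 CPM in YFP− cells, with log2 ratios of -0.22, -0.11 and 0.05. Mif, an alternative ligand of CXCR4, was at 95.9 and 96.2 CPM.

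The CX3CR1 ligand Cx3cl1 was nearly absent, with 6 and 12 UMIs. Cxcl12 had 19 UMIs in YFP− cells (7.86 CPM) and 131 in YFP+ cells (19.4 CPM), with a log2 interval of 0.57 to 1.88. The fibroblast marker Dcn moved with Cxcl12, at 10.8 and 33.2 CPM, and its part in the Cxcl12 ratio was not tested. Below the receptors, 20 genes of signalling and receptor trafficking were found and 17 tested, with a median log2 ratio of -0.04. Of these, 0 were past 1.5-fold, against 1.54% up and 5.77% down over all genes tested. In a list of this length, 0 is near that share. They included the inhibitory G protein gene Gnai2 (526 and 502 CPM), Arrb2 (217 and 211 CPM), which encodes an arrestin, and Rgs10 (692 and 671 CPM), which encodes a brake on G proteins. The kinase gene Grk2 had a log2 ratio of -0.32 (-0.58 to -0.06), and Rgs1 and Rgs2 of 0.38 (0.03 to 0.74) and 0.36 (0.13 to 0.59). The G protein genes Gnb1 and Gng5 had log2 ratios of 0.20 (0.06 to 0.34) and -0.11 (-0.20 to -0.02).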

How the data were processed

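Single-cell RNA sequencing of sorted macrophages of the SN, 1 library of YFP− and 1 of YFP+ cells, was analysed. The authors deposited matrices of UMI counts (genes by barcodes) made from 10x Chromium v2 libraries mapped to GRCm38/mm10, neither normalized nor filtered for cells. The submitters' processing notes name Cell Ranger 3.0.2 and Seurat 2.2.0, and the annotation release is not given in the sources used here. Bulk libraries were not used here.

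Python 3.11.15 was used with scipy 1.17.1, pandas 2.3.3 and numpy 2.4.6. Barcodes with at least 500 UMIs and 200 genes were kept as cells. Doublets were not removed, and cells above 3 times the median UMI total (3 YFP− and 48 YFP+) were left out as an alternative. UMIs were summed per library and scaled to CPM, with exact Poisson intervals, and log2 ratios used a pseudocount of 1 CPM and an exact binomial interval given the summed counts. Shares have Clopper-Pearson intervals, after thinning each cell to 500 UMIs in 1 random draw (no cell was lost). Clusters were made with scanpy 1.11.5 (10000 counts per cell, 2000 variable genes without chemokine receptors, 20 components, 20 neighbours, Leiden resolution 0.8) and are called by number and leading genes. Positions are from GENCODE on GRCm38, and promoters from RefSeq. With 1 library per group there is no test. Named genes were the 4 receptors and, for each, the 5 genes with the highest log2 ratio in YFP+ cells that carry it. Listed receptors, ligands and signalling genes could be named with at least 20 CPM or past 1.5-fold, and not all of these were named. Cx3cl1, Cxcl12 and Dcn were named, and the comparison of cells with and without Ccr2 within clusters was added, after values were seen. The members and gene lists were chosen with earlier results of these data known. Results on 1 listed receptor and 1 listed marker are not reported here. The scripts were tested on simulated data.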

Additional observations from a re-analysis of the deposited data

How the results depend on the processing

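Both libraries were sorted from the same pool of mice and form only 1 pair, so no paired analysis was possible. The log2 ratios and shares of the 4 receptors, the ratio of Cx3cr1 shares with and without Ccr2, the counts of genes past the fold and the ratio of the highest cluster over the other cells were recomputed under other choices; the other values were not. Of 108 recomputed values, 80 stayed within the counting interval of the value reported (counts of genes within 1.5 times). None of the log2 ratios changed sign, but the ratio of Cx3cr1 shares in YFP− cells, 0.79 with an interval that held 1, was above 1 under 6 of 8 alternatives, ranging from 0.79 to 1.93. The log2 ratio of Ccr2 moved to 1.41 with each cell weighted equally and to 1.88 in the thinned cells, which hold few UMIs, and to 0.85 with an equal cluster makeup, a choice added after seeing the data; over its 10 alternatives it ranged from 0.85 to 1.88. That of Cx3cr1 moved to 0.46 in the thinned cells and otherwise lay between 0.25 and 0.40. Ratios of Ccr1 ranged from -0.59 to -0.21 and those of Cxcr4 from 0.11 to 0.54. Shares of cells move with depth by construction. Without thinning they were 9.86% and 25.1% for Ccr2 (YFP− and YFP+), 34.3% and 33.6% for Cx3cr1, 5.74% and 3.18% for Ccr1 and 6.79% and 6.42% for Cxcr4. At 300 UMIs they moved to 6.96% for Ccr2 in YFP+ cells, 6.79% and 9.52% for Cx3cr1, 0.543% for Ccr1 in YFP+ cells and 0.861% and 1.36% for Cxcr4. The ratio of Cx3cr1 shares in YFP+ cells with and without Ccr2 was 1.46 without thinning. Genes past the fold numbered 29 up and 152 down at a mean of at least 50 CPM, 1435 and 2664 with no filter, and 14 and 183 at 2-fold, where fewer or more genes can pass by construction. The log2 ratio of the cluster highest in Ccr2 over the other cells was 1.63, 1.37 at Leiden resolution 0.4 and 1.79 with 10 components, and that of the cluster highest in Cx3cr1 fell from 0.59 to 0.28 at resolution 0.4, where clusters are larger. Counts of 74 to 286 UMIs limit what can be said of Ccr1 and Cxcr4.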
